A study of Canis lupus familiaris with 6 samples.

Results

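The 10 enzymes followed here make or break down cyclic AMP (cAMP), and were measured in canine melanoma cells with and without podoplanin. They were picked by gene symbol: the adenylate cyclase genes ADCY3, ADCY6, ADCY7 and ADCY9, and the phosphodiesterase genes PDE4A, PDE4B, PDE4D, PDE7A, PDE7B and PDE8A. They are 10 of the 30951 genes listed and 10 of the 12270 with enough counts to be tested. ADCY3 entered the set because it was low in podoplanin knockout (KO) lines of these same libraries, so its KO values and fitted changes are given as a description, and no test of them is used. The levels of the other enzymes were also known when the set was drawn up.

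The groups were podoplanin KO lines of CMM12 (2 libraries, KO 1 and KO 2), the CMM12 control (1 library, wild type), podoplanin KO lines of CMM2 (2 libraries, KO 1 and KO 2) and the CMM2 control (1 library, wild type). CMM12 and CMM2 are canine melanoma cell lines, and no animals or drugs enter the design. The labels do not say whether a KO line is 1 clone or whether the libraries came from separate cultures, so the p-values reflect no more than how these particular samples vary, and that variation may be technical. With 1 control a line, every KO comparison within a line rests on a single control library.

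Adenylate cyclases make cAMP from ATP when a receptor activates the stimulatory G protein Gs, and phosphodiesterases hydrolyse it. In between, cAMP opens channels and activates protein kinase A (PKA) and the exchange factors known as EPAC, and PKA phosphorylates the transcription factor CREB. In melanocytes the melanocortin receptor works through this pathway, which raises transcription of MITF, the regulator of pigment genes. The roles given below are those known from human and mouse enzymes.

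Libraries held 9732927 to 11807835 estimated counts. Podoplanin transcript (PDPN) stood at 17.4% and 11.4% of the control level in CMM12 KO 1 and KO 2, and at 27.6% of it in each CMM2 KO line, lower in every library labelled KO. CMM2 KO 2 stood apart in its line: of 8660 genes averaging at least 10 CPM (counts scaled to library size), 6.02% differed at least 2-fold between it and the control, and 0.751% did for CMM2 KO 1. In CMM12 these shares were 4.23% for KO 1 and 4.34% for KO 2. Several defining melanocyte markers were at or near 0 in all 6 libraries, with DCT and KIT at 0, SOX10 at most 0.07 TPM (transcript abundance scaled for length and library size), TYR at most 0.08 and MLANA at most 0.20. PMEL ranged from 0.41 to 1.82 TPM, and TYRP1 was at 2.22, 3.45 and 2.09 TPM in CMM12 KO 1, KO 2 and the control and at 0 in CMM2. MITF (10.7 to 21.7 TPM) and the transporter gene SLC45A2 (23.2 to 31.8 TPM) were present. Leukocyte markers PTPRC, CD3E, CD4 and CD8A were at 0, while CD79A, a B-cell gene, was listed at 3150 to 4542 TPM; whether reads of another transcript enter that value was not tested.

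ADCY3 encodes a membrane cyclase best known from olfactory neurons and primary cilia. Its level was 0.58 TPM in CMM12 KO 1 and 3.41 TPM in CMM12 KO 2, against 31.0 TPM in the CMM12 control. In CMM2 it was 0 TPM in KO 1 and 0.05 TPM in KO 2, against 0.69 TPM in the control. The CMM12 control therefore stood far above the other 5 libraries, and both KO libraries of each line lay below their control. In bulk RNA, fewer cells that express a gene and less RNA per cell cannot be told apart. Some markers of other cell types were also lower in the CMM12 KO lines. The summed TPM of 4 listed epithelial markers was 1.45 and 2.69 in KO 1 and KO 2 and 15.1 in the control. KRT14 gave 13.03 of that control sum. The sum of 8 fibroblast markers was 820 and 1362 in the KO lines and 2185 in the control. The collagen genes COL1A1, COL1A2 and COL3A1 made up most of the fibroblast sum. Other markers, named after their values were seen, lay the other way in CMM12. PDGFRA stood at 11.5 and 20.8 TPM in the KO lines and 10.2 TPM in the control, and PDGFRB at 1.75 and 3.39 against 1.00 TPM. The endothelial marker VWF stood at 0.61 and 0.88 against 0.26 TPM. CMM12 fold changes were above 0 for 3 of 8 tested fibroblast, 0 of 2 epithelial, 2 of 3 endothelial and 2 of 3 leukocyte markers. In CMM2 the epithelial sum was 0 in all 3 libraries, and the fibroblast sum was 788 and 2779 in KO 1 and KO 2 and 343 in the control. Their part in the ADCY3 values was not tested.

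As counts, ADCY3 had 22 and 109 in CMM12 KO 1 and KO 2 and 1136 in the CMM12 control. Scaled for library size, KO 1 kept 2.05% of the control level (95% counting interval 1.28% to 3.11%) and KO 2 kept 10.9% (8.86% to 13.3%). These intervals cover counting error only and do not overlap, so the CMM12 KO lines also differed from each other, by 2.41 on the log2 scale, a gap beyond counting error. In CMM2 the counts were 0 and 2 in the KO lines and 26 in the control. KO 1 was at least 9.47-fold lower than the control, with 0 taken as 3 counts per library, and for KO 2 the ratio of control to KO was 13.1 (counting interval 3.29 to 114). The CMM2 change is thus one between a low level and almost none.

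Fitted over both lines with edgeR, the ADCY3 log2 fold change of KO over control was −4.08 (SE 0.68). It was −3.95 (SE 0.83) in CMM12 and −4.60 (SE 1.45) in CMM2. The interval of the difference between lines, CMM12 minus CMM2, ran from −3.27 to 4.57, so these libraries do not show which line changed more in proportion. On the TPM scale the drop was larger in CMM12 by far, because only its control held much transcript. By scaled counts both KO libraries of ADCY3 were at least 2-fold lower than the control in CMM12, where 3.24% of all tested genes were, and in CMM2, where 1.43% were. Because these values chose ADCY3, nothing is read from its place in those shares.

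**Figure D1:**
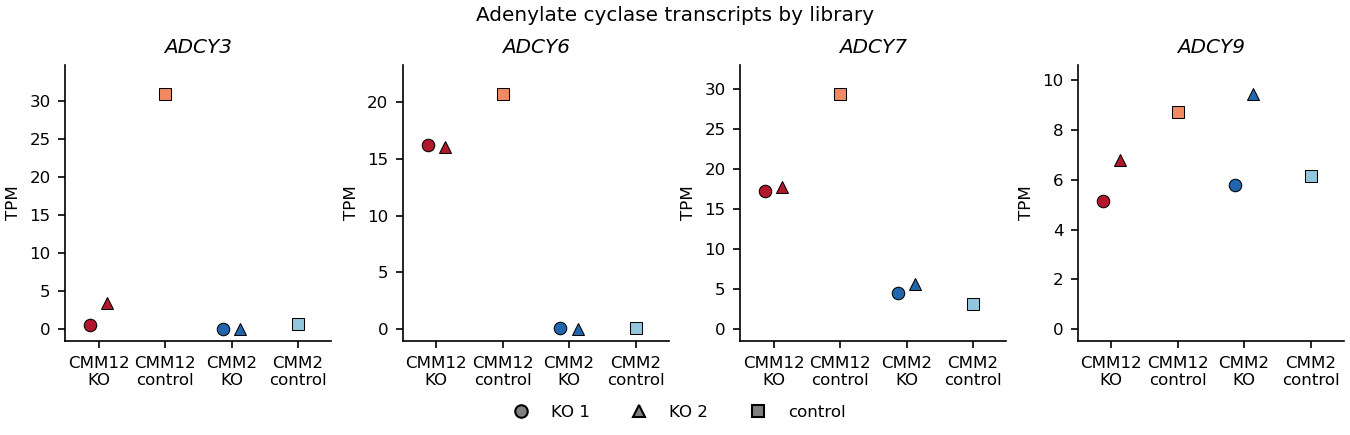
TPM of ADCY3, ADCY6, ADCY7 and ADCY9 (vertical axes, linear, each with its own range) in CMM12 KO, CMM12 control, CMM2 KO and CMM2 control libraries (1 point a library). ADCY3 was at 31.0 TPM in the CMM12 control and at most 3.41 TPM elsewhere, ADCY6 was nearly absent from CMM2, and none of the 4 was higher in a CMM12 KO line than in the CMM12 control.

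None of the other cyclases of the set was higher in the CMM12 KO lines than in the control. ADCY6, a cyclase that calcium inhibits, stood at 16.2 and 16.1 TPM in CMM12 KO 1 and KO 2, against 20.8 TPM in the CMM12 control. ADCY7, which G protein beta-gamma subunits can boost, stood at 17.3 and 17.8 TPM in the KO lines, against 29.5 TPM in the control. ADCY9, a widely expressed cyclase that responds poorly to forskolin, stood at 5.17 and 6.81 TPM, against 8.73 TPM. All 3 had lower values in both CMM12 KO libraries than in the control.

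In counts scaled for library size, ADCY6 kept 85.6% and 76.9% of the CMM12 control level in KO 1 and KO 2, ADCY7 63.6% and 59.6%, and ADCY9 64.4% and 76.3%. The log2 fold changes were −0.30 for ADCY6 (95% interval −1.36 to 0.76), −0.70 for ADCY7 (−1.34 to −0.06) and −0.51 for ADCY9 (−1.40 to 0.38). None passed edgeR's quasi-likelihood test with Benjamini-Hochberg adjustment over all genes (adjusted p 0.956, 0.808 and 0.89). The intervals of ADCY6 and ADCY9 also take in no change and a modest rise. Both CMM12 KO libraries lay below the control for 34.2% of all tested genes. They did so for 8 of the 10 members by scaled counts, but ADCY3 was chosen for that side and PDE7B passed the low-count filter only through the control, so nothing is read from the count.

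In CMM2 the values of the same cyclases lay differently. ADCY7 stood at 4.57 and 5.61 TPM in CMM2 KO 1 and KO 2, against 3.19 TPM in the CMM2 control, so both KO lines lay above it, at 141% and 171% of its level by scaled counts. ADCY9 stood at 5.79 and 9.47 TPM in the KO lines and 6.16 TPM in the control, so the KO lines fell on either side, and the higher one was KO 2, the library that stood apart; without it the log2 fold change was −0.11. ADCY6 was at 0.08 TPM, 0 TPM and 0.08 TPM in KO 1, KO 2 and the control, with 3 counts or fewer in each, so no change could be detected at this depth. The log2 fold changes were 0.64 for ADCY7 (95% interval −0.06 to 1.34) and 0.27 for ADCY9 (−0.64 to 1.19), and neither passed (edgeR adjusted p 1 for both).

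ADCY7 lay on opposite sides of the control in the 2 lines. The difference of its KO effects, CMM12 minus CMM2, was −1.34 on the log2 scale (SE 0.40, 95% interval −2.29 to −0.39). With an unadjusted edgeR p of 0.013 and an adjusted p of 1 over all genes, it did not pass, and it was the one member at an unadjusted p under 0.05 there (3.84% of all genes). Of all tested genes, 10.2% had both CMM12 KO libraries below and both CMM2 KO libraries above their controls, as ADCY7 did.

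The summed cyclase transcript shows what these levels add up to. Over all 10 cyclase genes, ADCY1 to ADCY10, the sum was 40.3 and 45.4 TPM in CMM12 KO 1 and KO 2, against 91.3 TPM in the CMM12 control, which leaves 44.1% and 49.7% of the control level. The gap exceeded that of ADCY3 alone: without ADCY3 the sum was 39.7 and 42.0 TPM in the KO lines and 60.3 TPM in the control. In CMM2 the 10 genes summed to 11.7 and 16.4 TPM in KO 1 and KO 2, against 11.1 TPM in the control. ADCY3 made up 1.44% and 7.51% of the cyclase TPM in the CMM12 KO lines and 34.0% in the CMM12 control, where it was the most abundant cyclase. ADCY7 was the most abundant cyclase in both CMM12 KO lines (42.8% and 39.2%), and ADCY9 in all 3 CMM2 libraries (49.4% and 57.9% in KO 1 and KO 2, 55.7% in the control). ADCY1 and ADCY8, calcium-stimulated cyclases, were at 0 in every library, and ADCY4 was between 0.41 and 1.29 TPM. ADCY2 was at 0.62 and 0.08 TPM in CMM12 KO 1 and KO 2, against 0.18 TPM in the control, and at 0 in CMM2.

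No phosphodiesterase of the set passed the edgeR test in KO. PDE4A, PDE4B and PDE4D encode cAMP-specific enzymes that the inhibitor rolipram blocks, and PKA and CREB act on several of them as negative feedback. PDE4A stood at 9.78 and 15.2 TPM in CMM12 KO 1 and KO 2, against 15.3 TPM in the control, and at 13.4 and 15.3 TPM in CMM2 KO 1 and KO 2, against 11.3 TPM in the control. Its KO lines thus lay at or below the control in CMM12 by TPM and above it in CMM2. By scaled counts CMM12 KO 2 stood at 101% of its control.

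PDE4B stood at 11.2 and 9.69 TPM in CMM12 KO 1 and KO 2, against 16.2 TPM in the control, and at 5.74 and 3.97 TPM in CMM2 KO 1 and KO 2, against 5.76 TPM in the control. PDE4D stood at 5.66 and 6.15 TPM in the CMM12 KO lines, against 7.83 TPM in the control, and at 5.38 and 4.54 TPM in the CMM2 KO lines, against 6.25 TPM in the control. By scaled counts all 4 KO libraries of PDE4D lay below their controls, as for 10.6% of all tested genes; by TPM those of PDE4B did too, with CMM2 KO 1 almost level with its control. Over both lines its log2 fold change was −0.34 (SE 0.21, 95% interval −0.83 to 0.14, edgeR adjusted p 0.987), and that of PDE4B was −0.35 (SE 0.27, 95% interval −0.98 to 0.28, edgeR adjusted p 0.987).

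PDE7A and PDE7B encode high-affinity cAMP phosphodiesterases that rolipram does not block, and the 2 genes differed. PDE7A stood at 3.04 and 2.26 TPM in CMM12 KO 1 and KO 2, against 1.47 TPM in the control, and at 2.65 and 2.32 TPM in CMM2 KO 1 and KO 2, against 3.12 TPM in the control. It was the one member with both CMM12 KO libraries above the control (35.6% of all tested genes), at 225% and 152% of it. These levels rest on 68, 43 and 32 counts in KO 1, KO 2 and the control, and the log2 fold change of 0.91 (95% interval −0.45 to 2.28) did not pass (edgeR adjusted p 0.874). PDE7B was at 0 in all 4 KO libraries, against 1.60 TPM (20 counts) in the CMM12 control and 0.08 TPM (1 count) in the CMM2 control. In CMM12 it was at least 6.31-fold lower in KO 1 and at least 5.88-fold lower in KO 2, with 0 taken as 3 counts per library. PDE7B passed the low-count filter only through the CMM12 control, so it had to differ there. PDE11A, outside the set, was also at 0 in both CMM12 KO lines, against 2.10 TPM in the control.

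PDE8A, a high-affinity cAMP phosphodiesterase that the general inhibitor IBMX does not block, was the most abundant phosphodiesterase of the set. It stood at 23.9 and 24.9 TPM in CMM12 KO 1 and KO 2, against 30.9 TPM in the control, and at 30.5 and 43.0 TPM in CMM2 KO 1 and KO 2, against 38.1 TPM in the control. Both CMM12 KO lines were below their control and the CMM2 KO lines lay on either side of theirs. The log2 fold change over both lines was −0.19 (SE 0.18, 95% interval −0.61 to 0.24, edgeR adjusted p 0.987).

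**Figure D2:**
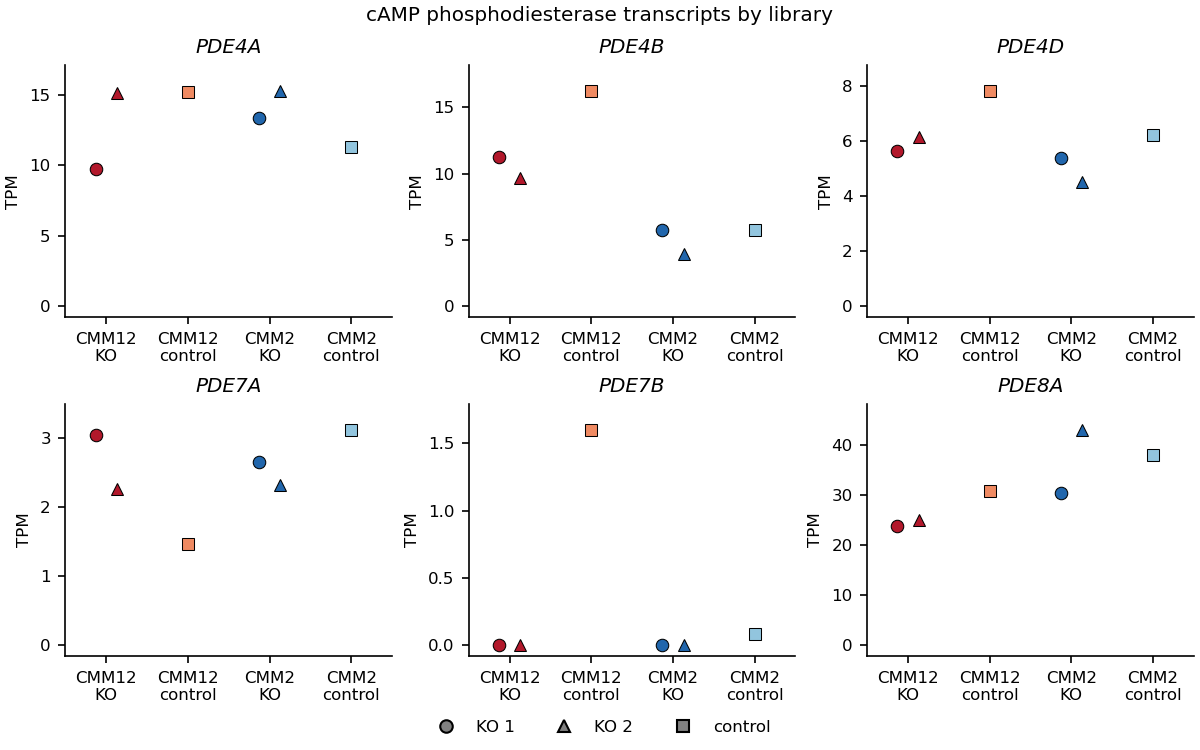
TPM of the 6 phosphodiesterase genes (vertical axes, linear, each with its own range) in CMM12 KO, CMM12 control, CMM2 KO and CMM2 control libraries (1 point a library). PDE7A was higher in both CMM12 KO lines than in the control, at 3.04 and 2.26 against 1.47 TPM, while PDE7B reached 1.60 TPM in the CMM12 control and at most 0.08 TPM elsewhere.

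Across the set, edgeR called 0 of 10 members in the KO comparison over both lines and 0 of 10 in each line. Over all 12270 genes it called 0 (0%) over both lines, 0 (0%) in CMM2 and 1 (0.00815%) in CMM12. Leaving ADCY3 aside, the members at an unadjusted p under 0.05 were PDE7B over both lines (4.05% of all genes) and none in CMM2 (1.9%). In CMM12 they were ADCY7 and PDE7B (5.98%). PDE7B passed the low-count filter only through the CMM12 control, so it had to differ there and nothing is read from its p-values. PDPN, the gene knocked out, had a log2 fold change of −2.36 (SE 0.28) over both lines. It did not pass edgeR's test there (adjusted p 0.286) or in either line, though DESeq2 called it over both lines (adjusted p 4.2e-08). A gene that did not pass edgeR's test is therefore not shown to be unchanged. DESeq2, the other count test, called none of the members other than ADCY3 over both lines, in CMM12 or in CMM2, where it called 9 (0.0733%), 45 (0.406%) and 6 (0.0489%) of all genes.

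**Figure D3:**
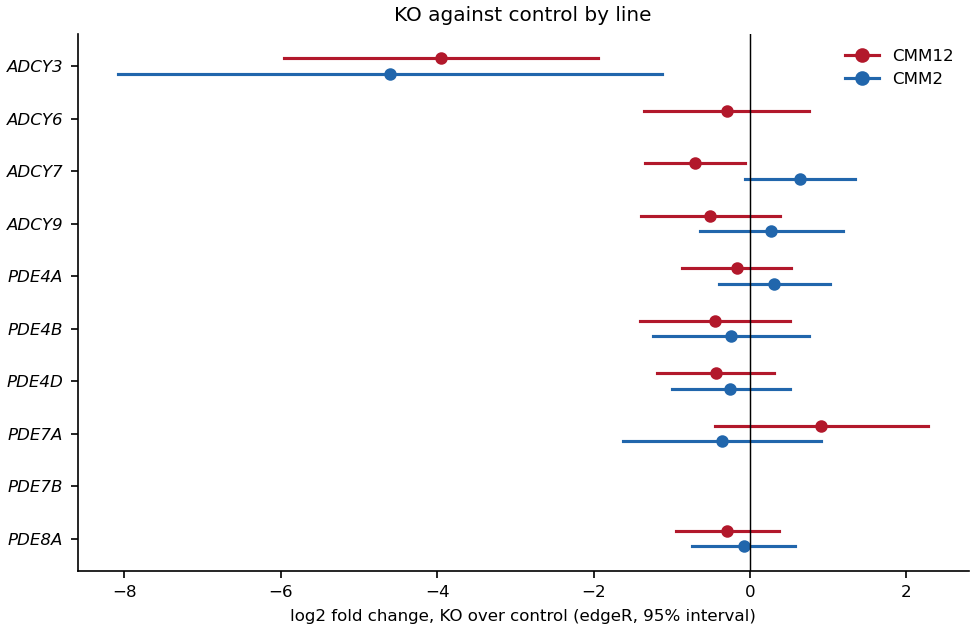
Log2 fold change of KO over control (horizontal axis) with its 95% interval from edgeR, for each member in CMM12 and CMM2. ADCY6 in CMM2 and PDE7B are not drawn because of their low or zero counts; the points of ADCY3 lie at −3.95 and −4.60 and those of the other enzymes between −0.70 and 0.91.

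Breakdown enzymes outside the set carried much of the phosphodiesterase transcript. PDE3A and PDE3B, dual-specificity enzymes that cGMP inhibits, made up 48.2% and 62.5% of the summed TPM of 16 cAMP phosphodiesterase genes in CMM12 KO 1 and KO 2, against 45.7% in the CMM12 control, and 52.4% and 62.7% in CMM2 KO 1 and KO 2, against 40.4% in the CMM2 control. PDE3A stood at 34.0 and 49.0 TPM in the CMM12 KO lines, against 50.8 TPM in the control, and at 57.9 and 93.9 TPM in the CMM2 KO lines, against 35.6 TPM in the control. PDE3B stood at 16.3 and 48.9 TPM in the CMM12 KO lines, against 12.7 TPM in the control, and at 5.88 and 22.6 TPM in the CMM2 KO lines, against 8.19 TPM in the control. KO 2 had more PDE3B than KO 1 in both lines. In the edgeR fit the log2 fold changes over both lines were 0.36 (SE 0.34) and 1.07 (SE 0.59), and neither passed (adjusted p 0.987 for both). PDE3A had an unadjusted p of 0.025 in CMM2, with a log2 fold change of 1.06 (SE 0.37, edgeR adjusted p 1).

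All 16 phosphodiesterases together summed to 104 and 157 TPM in CMM12 KO 1 and KO 2, against 139 TPM in the control, and to 122 and 186 TPM in CMM2 KO 1 and KO 2, against 108 TPM in the control. The 6 members alone summed to 53.6 and 58.2 TPM in the CMM12 KO lines, against 73.2 TPM in the control. In CMM2 they summed to 57.6 and 69.1 TPM in the KO lines, against 64.6 TPM in the control. The ratio of summed cyclase to summed phosphodiesterase TPM was 0.387 and 0.290 in the CMM12 KO lines and 0.657 in the CMM12 control. For CMM2 this ratio was 0.0964 in KO 1 and 0.0880 in KO 2, against 0.102 in the control. The ratio thus separated the lines more than it separated KO from control; it is one of transcripts and not of enzyme activity.

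**Figure D4:**
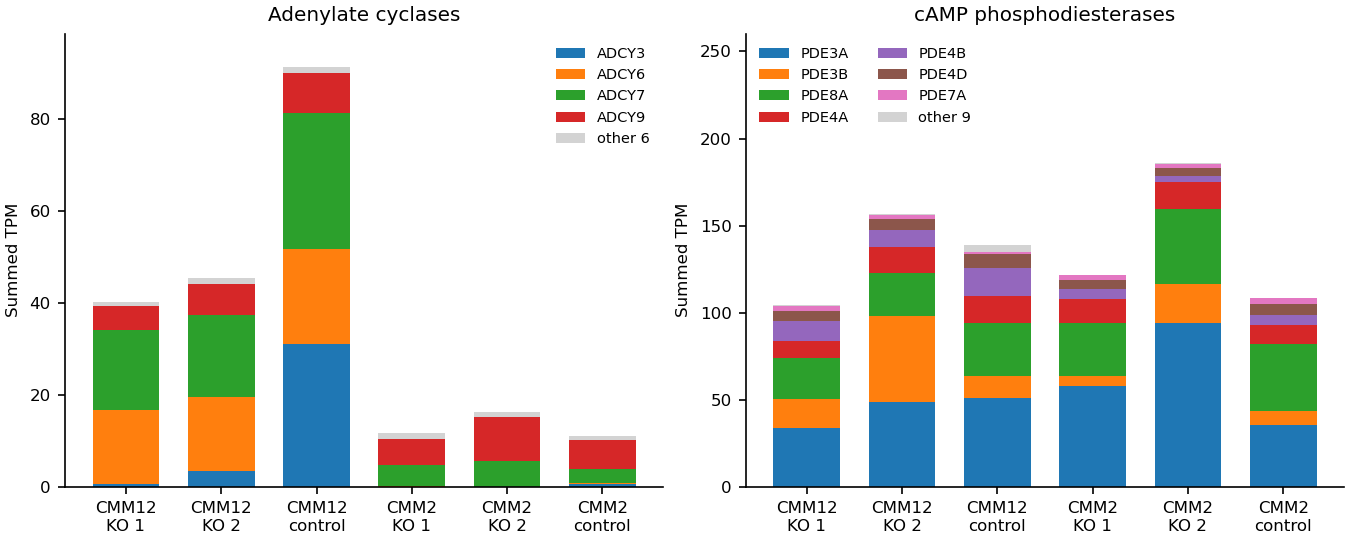
Summed TPM of 10 adenylate cyclase genes (left) and 16 cAMP phosphodiesterase genes (right) in each library, stacked by gene from 0. The CMM12 control reached 91.3 TPM of cyclase against 40.3 and 45.4 TPM in the CMM12 KO lines, and the phosphodiesterase sums ran from 104 to 186 TPM.

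The comparison of CMM12 with CMM2, with the genotype as a term, asked which enzymes distinguish the lines. The largest differences among called members were in cyclases: ADCY6 was higher in CMM12 by 8.19 on the log2 scale (SE 0.46, edgeR adjusted p 0.000285), a size that rests on 3 counts or fewer in each CMM2 library, ADCY3 by 5.49 (SE 0.78, adjusted p 0.00377) and ADCY7 by 2.11 (SE 0.30, adjusted p 0.00373). PDE4B was higher by 1.24 (SE 0.26, adjusted p 0.014), and PDE8A was lower by these counts, at −0.63 (SE 0.17, adjusted p 0.0359). So 5 of the 10 members passed, 4 higher and 1 lower, where 25.9% of all genes passed (14.6% higher and 11.2% lower). ADCY6 passed the low-count filter only through CMM12, so it had to differ between the lines.

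Every CMM12 library lay above every CMM2 library for ADCY6, ADCY7 and PDE4B (24.6% of all tested genes). ADCY6 ranged from 16.1 to 20.8 TPM in CMM12 and from 0 to 0.08 TPM in CMM2, and ADCY7 from 17.3 to 29.5 TPM in CMM12 and 3.19 to 5.61 TPM in CMM2. ADCY3 overlapped, since CMM12 KO 1 (0.58 TPM) lay below the CMM2 control (0.69 TPM). PDE8A lay lower in every CMM12 library by scaled counts (21.5% of all tested genes), but by TPM the CMM12 control (30.9 TPM) was above CMM2 KO 1 (30.5 TPM). PDE4B lost its call without the CMM2 control (adjusted p 0.0654), the CMM12 control (0.0738) or CMM12 KO 1 (0.0516), and PDE8A lost its call without any 1 of the 6 libraries (0.0548 to 0.12) and in limma on log2 TPM (0.119 and 0.116). ADCY9, PDE4A, PDE4D, PDE7A and PDE7B did not pass between lines, with adjusted p from 0.239 to 0.633.

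Ordered by level, the CMM12 control had ADCY3 (31.0 TPM) and ADCY7 (29.5 TPM) highest, then ADCY6 (20.8 TPM) and ADCY9 (8.73 TPM). The CMM12 KO lines had ADCY7 and ADCY6 next to each other (17.3 and 17.8 TPM, against 16.2 and 16.1 TPM), then ADCY9, and ADCY3 last. The CMM2 libraries had ADCY9 first, ADCY7 second, and ADCY3 and ADCY6 under 1 TPM. CMM2 cells, with or without podoplanin, thus held mainly ADCY9 and ADCY7 transcript, while CMM12 cells held ADCY6 and ADCY7 with or without it.

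The rest of the cAMP pathway was read from 10 lists of 164 genes, of which 152 were listed and 118 tested, 108 of them outside the set. Of these 108, edgeR called 0 in KO over both lines, in CMM12 or in CMM2, and DESeq2 also called 0 in each. At an unadjusted p under 0.05 edgeR had 3, 9 and 1 of them, where 4.05%, 5.98% and 1.9% of all genes were. PDE11A and VIPR2 were among the 3 and the 9. Both were at 0 in the CMM12 KO lines and passed the low-count filter only through the CMM12 control, so they had to differ there. Between the lines 30 passed, 21 higher and 9 lower in CMM12, or 27.8% against 25.9% of all genes. The pathway outside the set therefore differed between the lines about as often as genes in general.

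Upstream of the cyclases, the Gs subunit gene GNAS stood at 715 and 688 TPM in CMM12 KO 1 and KO 2, against 663 TPM in the control, and at 382 and 441 TPM in CMM2 KO 1 and KO 2, against 342 TPM in the control. The inhibitory subunit gene GNAI2 stood at 316 and 337 TPM in the CMM12 KO lines, against 300 TPM in the control, and at 284 and 252 TPM in the CMM2 KO lines, against 237 TPM in the control. All 4 KO libraries lay above their controls for both genes, as for 10.5% of all tested genes, and neither passed. Of 7 tested G protein genes, 3 passed as higher in CMM12 (GNAS, GNAI1 and GNAZ) and 1 as lower (GNAI3), where 14.6% of all genes passed as higher and 11.2% as lower. GNAZ had 2 counts or fewer in each CMM2 library and passed the filter only through CMM12. Genes named with such counts were chosen after their values were seen.

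Of 18 receptors that couple to Gs, 15 were listed and 6 tested. The melanocortin receptor gene MC1R was not among the listed symbols, so its level could not be read. The adenosine receptor gene ADORA2A stood at 7.66 and 9.45 TPM in CMM12 KO 1 and KO 2, against 13.6 TPM in the control, and at 1.3 and 1.03 TPM in CMM2 KO 1 and KO 2, against 1.38 TPM in the control. The ciliary orphan receptor gene GPR161 stood at 5.38 and 6.85 TPM in the CMM12 KO lines, against 8.65 TPM in the control, and at 4.31 and 3.88 TPM in the CMM2 KO lines, against 4.27 TPM in the control. ADORA2A and the prostaglandin receptor gene PTGER2 passed edgeR's test as higher in CMM12 than in CMM2.

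Downstream, PKA regulatory subunit gene PRKAR1A stood at 293 and 293 TPM in CMM12 KO 1 and KO 2, against 266 TPM in the control, and at 206 and 288 TPM in CMM2 KO 1 and KO 2, against 259 TPM in the control. PRKAR2A stood at 82.3 and 78.0 TPM in the CMM12 KO lines, against 110 TPM in the control, and at 100 and 77.0 TPM in the CMM2 KO lines, against 105 TPM in the control. Of 10 PKA genes, 2 passed between lines (PRKAR2B and PRKX, both higher in CMM12), where 25.9% of all genes did. Among 13 tested genes of A-kinase anchoring, which hold PKA in place, AKAP2 passed as higher and AKAP13 as lower in CMM12, and AKAP12 stood at 33.3 and 52.5 TPM in the CMM12 KO lines, against 62.9 TPM in the control. EZR, an actin linker that also anchors PKA, stood at 418 and 466 TPM in those KO lines, against 425 TPM in the control. Another list held other cAMP receptors, the GTPase genes RAP1A and RAP1B, and transporters. Of its 10 tested genes, 2 passed as higher in CMM12 (CNGA1 and the exporter ABCC5) and 3 as lower (RAP1B, BVES and HCN3). The shares over all genes were 14.6% and 11.2%. CNGA1 had 7, 6 and 7 counts in CMM2 KO 1, KO 2 and the control. It passed the filter only through CMM12, which favoured its call as higher there. BVES was at 0 in all 3 CMM12 libraries and passed the filter only through CMM2, so it had to differ.

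Transcription factors of the CREB group and their regulators showed a median log2 fold change of 0.12 over both lines in 12 tested genes, against 0.01 over all tested genes. Of 14 tested CREB target genes, 10 had fold changes above 0 over both lines with a median of 0.14. In CMM12 11 of 14 were above 0, with a median of 0.51, against a median of 0.02 over all tested genes. In CMM2 4 of 14 were above 0, with a median of −0.18, against 0.00 over all tested genes. Of all 12270 tested genes, 6372 were above 0 over both lines, 6391 in CMM12 and 6148 in CMM2. Among the targets higher in CMM12, FOS had 7 counts and NR4A2 had 10 in the CMM12 control, so their fold changes rest on few counts. No member of either list passed in KO. PDE4B and PDE4D belong to the target list and were lower in both CMM12 KO lines. The stress-response gene ATF3 was higher there and stood at 27.9 and 38.3 TPM in CMM12 KO 1 and KO 2, against 18.2 TPM in the control, and at 21.9 and 12.1 TPM in CMM2 KO 1 and KO 2, against 23.3 TPM in the control. CCNA2, a cyclin gene, stood at 122 and 143 TPM in the CMM12 KO lines, against 123 TPM in the control, and at 113 and 99.1 TPM in the CMM2 KO lines, against 115 TPM in the control, so CMM12 KO 2 alone lay above its control by TPM. Several of these targets also answer to other pathways, whose part was not tested.

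ADCY3 protein is used as a marker of the primary cilium. Genes of this organelle lay on both sides of 0 in KO, with more below it in CMM12 and more above it in CMM2. Of 35 tested cilium genes, 16 had fold changes above 0 and 19 below 0 over both lines, with a median of −0.03. All tested genes had 6372 above and 5898 below 0 there, with a median of 0.01. In CMM12 12 cilium genes were above and 23 below 0, with a median of −0.27. All tested genes had 6391 above and 5827 below 0 in CMM12, with a median of 0.02. In CMM2 21 cilium genes were above and 14 below 0, with a median of 0.10. The numbers over all tested genes were 6148 and 5741, with a median of 0.00. ADCY3 itself is counted among the 35 and lies below 0 in each of these tallies. The transport genes IFT52 and IFT57 stood at 41.0 and 47.1 TPM and at 45.4 and 55.1 TPM in CMM12 KO 1 and KO 2, against 54.4 and 62.5 TPM in the control. Leaving ADCY3 aside, neither edgeR nor DESeq2 called a cilium gene in KO; genes with an unadjusted edgeR p under 0.05 in CMM12 included IFT81 and WDR35.

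The genes beside ADCY3 on chromosome 17 did not show a drop of its size in both CMM12 KO lines. Order was taken from the RefSeq annotation of the dog assembly UU_Cfam_GSD_1.0, which differs from the CanFam3.1 build of the files, so no coordinates are given. Of the 10 nearest listed genes on each side, 18 were tested, and by scaled counts 0 of the 18 were at least 2-fold lower in both CMM12 KO lines (3.24% of all tested genes were), though NCOA1 was by TPM. Of the 18, 10 lay below the control in both CMM12 KO lines (34.2% of all tested genes did).

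On one side, PTRHD1 stood at 14.8 and 15.1 TPM in CMM12 KO 1 and KO 2, against 16.7 TPM in the control. The centromere gene CENPO, next to it, stood at 27.9 and 21.2 TPM in the KO lines, against 36.9 TPM in the control, and the nuclear receptor coactivator gene NCOA1 at 7.74 and 7.15 TPM, against 15.8 TPM. On the other side, DNAJC27 stood at 2.94 and 3.28 TPM, against 3.23 TPM, and EFR3B at 0.72 and 2.55 TPM, against 4.65 TPM. POMC, which encodes the precursor of the melanocortin peptides, was at 0 in every library. Whether counting used strand was not stated, so reads of ADCY3 and of any gene overlapping it cannot be told apart.

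**Figure D5:**
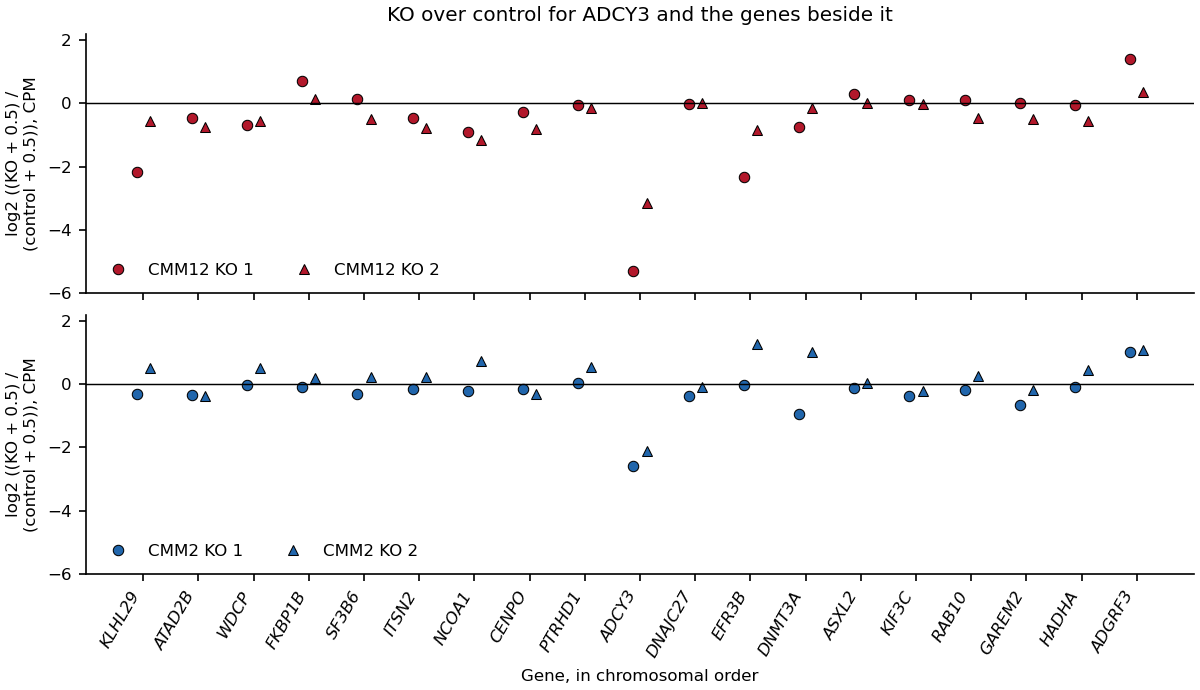
Log2 ratio of KO to control (vertical axis, CPM with 0.5 added) for ADCY3 and the tested genes among the 10 nearest on each side, in chromosomal order, for both KO lines of CMM12 (upper) and CMM2 (lower). ADCY3 lies at −5.30 and −3.14 in CMM12, below each of its neighbours; the added 0.5 shrinks the CMM2 ratios of ADCY3.

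The 6 genes whose levels were most like those of ADCY3 over the 6 libraries were ZNF484, DNAJB4, DSEL, HBS1L, LMAN1 and SPC25, with Pearson correlations of log2(CPM + 1) from 0.9705 to 0.9745 among 10132 genes compared. Of these genes, 136 reached 0.9. Libraries share their lines and the high CMM12 control, so these values describe 6 points and carry no test. DSEL, an epimerase-like gene, stood at 0.69 and 1.05 TPM in CMM12 KO 1 and KO 2, against 5.70 TPM in the CMM12 control, and the chaperone gene DNAJB4 at 14.1 and 16.6 TPM, against 22.0 TPM. Among the members that average at least 1 CPM, which leaves out PDE7B, the correlation with ADCY3 was highest for PDE4B (0.794), ADCY7 (0.765), ADCY6 (0.738) and PDE4D (0.734), and it was −0.809 for PDE7A. On log2(TPM + 0.1) 0 of the 6 genes were among the 6 most alike, so the order of the likeness depends on the scale.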

How the data were processed

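Total RNA was extracted with a column kit, per the labels' protocols. The submitters' processing notes name STAR (2.7.3a), RSEM (1.3.3) and the dog genome build CanFam3.1. The authors deposited unscaled expected counts and length-scaled TPM for every gene, per the file headers. Rows without a symbol (12940 of 30951) stayed in library sizes and tests, and for a symbol on several rows, the row of highest mean count was used.

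Expected counts were rounded, which changed 3.22% to 3.63% of the values. Within each line all libraries differed beyond sampling noise (chi-square over its degrees of freedom 14.5 to 59.3). edgeR 4.0.16 in R 4.3.3 (TMM, filterByExpr, glmQLFit and glmQLFTest, Benjamini-Hochberg at 0.05 over 12270 genes) gave all fold changes, from an additive model of line and genotype or from 4 group means, where a lone control is assumed to vary like the KO pairs. The fits were tested on simulated data, in which each changed gene had the same KO effect in both lines and its spread followed the average trend. Genes here need not behave so, and the power of the real fits is not read from that test. Alternatives were DESeq2 1.42.0 (which gave an adjusted p for 11080 genes in CMM12, the rest staying NA), limma 3.58.1 on log2 TPM with a pseudocount of 1 or 0.1 (scales on which low genes change less), other factors, filters and quasi-likelihood form, the KO number as a block, and each library left out. At these depths 3 counts correspond to 0.254 to 0.308 CPM. Members, gene lists and tests were chosen with earlier results of these data known. Genes are named if they are members, the 2 highest by mean TPM of a list, called in KO, the 3 nearest listed genes on each side of ADCY3, or the 6 most like it; PDE3B, PDE11A, ADCY1, ADCY2, ADCY4, ADCY8 and genes named for a count were added after their values were seen.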

Additional observations from a re-analysis of the deposited data

Results flagged for a closer look

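ADCY7 and PDE7A stood out because both KO libraries of one line lay on one side of the control and both of the other line on the other side. For ADCY7 the difference of the KO effects, CMM12 minus CMM2, was −1.34 on the log2 scale (SE 0.40), lower in both CMM12 KO lines and higher in both CMM2 KO lines, and edgeR's adjusted p for the difference was 1. For PDE7A the difference was 1.27 (SE 0.77), higher in both CMM12 KO lines and lower in both CMM2 KO lines, with an edgeR adjusted p of 1. Such patterns were found in 10.2% and 11% of all tested genes.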

How the results depend on the processing

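The count of genes called in KO over both lines (0) was 9 with DESeq2, 15 with no low-count filter, 3 and 2 with limma on log2(TPM + 1) and log2(TPM + 0.1), and 0 to 1 with a library left out. In CMM2 (0) it was 6 with DESeq2, 2 with no filter and 0 to 1 with a library left out. In CMM12 (1) it was 45 with DESeq2, 28 with no filter, 0 with at least 1 CPM in 2 libraries, 4 in the bias-adjusted form, 0 and 0 with limma, and 0 to 14 with a library left out (14 without CMM12 KO 2). For the difference of KO effects (0) it was 22 with DESeq2, 2 with no filter and 0 to 1 with a library left out. Between lines (3172) it was 1501 to 3102 with a library left out. Of the 6 genes most like ADCY3, 0 were shared on log2(TPM + 0.1) and 1 was at the highest Spearman value.

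With a library left out, log2 fold changes over both lines ran from −0.70 to 0.64 for ADCY7 (0.04 without CMM12 KO 2), −0.51 to 0.27 for ADCY9, −0.17 to 0.31 for PDE4A (−0.01 without CMM2 KO 2) and −0.36 to 0.91 for PDE7A. In CMM2 they ran from −0.11 to 0.58 for ADCY9, −0.55 to 0.00 for PDE4B and −0.34 to 0.13 for PDE8A, and in CMM12 from −0.38 to 0.01 for PDE4A. The difference of KO effects for ADCY3 was −2.88 and −1.64 with limma and −1.0 to 3.82 with a library left out (−0.32 without CMM2 KO 1). For ADCY6 it was −0.29 with limma on log2(TPM + 1) and −0.17 to 4.38 with a library left out, for PDE4B −0.46 to 0.09 and for PDE8A −0.42 to 0.06. Between lines ADCY9 ran from −0.47 to 0.08 (without CMM2 KO 2), PDE7A from −0.71 to 0.00 (without the CMM12 control) and PDE7B from 0.00 (without the CMM2 control) to 3.78. The causes were not tested.

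The KO numbers do not show pairing: the KO 1 minus KO 2 differences of the lines correlated at 0.0552 across 12270 genes, with 2 pairs. With the KO number as a replicate block, 2960 genes were called between lines and the same 5 members passed. ADCY3 in CMM2, ADCY6 in CMM2 and PDE7B rest on few counts, which limits what their fold changes show.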
